A study of Mus musculus with 8 samples.

Results

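Efhd2 and Efhd1 encode the swiprosins, a pair of related calcium-binding proteins. They are 2 of the 18193 genes with a symbol of their own on the arrays, and were measured by 3 of 45137 probe sets apart from controls. The rule took every probe set whose only gene symbol in the platform annotation was Efhd2 or Efhd1. It found 1 probe set of Efhd2 and 1 of Efhd1 on the Affymetrix 430A array, and 1 further probe set of Efhd2 on the 430B array. A probe set is a group of short probes whose brightness is summarised as 1 signal intensity. Efhd2 was chosen by its measured 430B signal, already known to differ between the strains while its 430A signal did not, so its values are given as a description with no test. Efhd1 was taken as the related gene, not for its values.

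The series compared the baseline cerebellum of 2 inbred mouse strains, Inbred Long Sleep (ILS, mice 48 and 51) and Inbred Short Sleep (ISS, mice 55 and 56), derived from lines that had been selected on how long ethanol kept them off their feet. All 4 mice were male and naive to alcohol, and had free food and water for 14 days after transfer between institutions. Ages were not given in the sources used here. Total RNA of each mouse was hybridised to both arrays, which gave 8 arrays and n = 2 mice per strain in every comparison.

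Both swiprosins carry EF hands, the helix-loop-helix fold that binds calcium. Efhd2 (swiprosin-1) is a cytosolic protein that binds filamentous actin, is abundant in brain and immune cells, and has been found bound to the microtubule protein tau. Mice without Efhd2 have been reported to drink more ethanol. Efhd1 (swiprosin-2, or mitocalcin) is held at mitochondria, where it acts as a calcium sensor.

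The 3 probe sets differ in what their names say about their probes. In the naming of these arrays, the mark a on the 430A set of Efhd2 (1431339_a_at) stands for probes common to transcript variants of the same gene. The mark s on the 430B set of Efhd2 (1437478_s_at) stands for probes common to several transcripts, which may come from different genes. The set of Efhd1 (1448507_at) has neither mark. The probe sequences were not used here, so which part of the transcript each set reads is not given.

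On 430B, Efhd2 had a signal of 19064 in ILS mouse 48 and 17273 in ILS mouse 51. It had 1736 in ISS mouse 55 and 3120 in ISS mouse 56. Both ILS mice lay far above both ISS mice, and the lower ILS value was 5.54-fold above the higher ISS value. The means were 18169 ± 1267 in ILS and 2428 ± 979 in ISS (SD, n = 2). The log2 difference of ILS minus ISS was 2.96, or 7.80-fold. Log2 differences here are between means of log2 values, not between the means of signal. Efhd2 ranked 4 among 11256 tested probe sets of 430B by how much higher ILS was. Just above it in that order stood 1458585_at, at 3.37, and just below it 1441404_at, at 2.71, neither of them with a single gene symbol. The strains did not overlap in 38.9% of the tested probe sets of 430B.

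The ISS mice differed from each other at this probe set more than the ILS mice did. Mouse 56 was 1.80-fold above mouse 55, a log2 gap of 0.85, and 3.33% of tested probe sets had a gap between the ISS mice at least as large. The ILS mice differed 1.10-fold, and 69.2% of tested probe sets had a gap between the ILS mice at least that large. The ILS minus ISS difference was therefore larger against ISS mouse 55 alone (log2 3.39, without mouse 56) than against ISS mouse 56 alone (2.54, without mouse 55).

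On 430A, Efhd2 showed no such separation. The signal was 2108 in ILS mouse 48, 2452 in ILS mouse 51, 2130 in ISS mouse 55 and 2331 in ISS mouse 56. The strains overlapped, with an ILS mouse lowest and an ILS mouse highest, while they did not overlap in 54.3% of the tested probe sets of 430A. The means were 2280 ± 243 in ILS and 2231 ± 142 in ISS (SD, n = 2), a log2 difference of 0.03, and 91.7% of the 11313 tested probe sets of 430A differed by at least as much in either direction. Setting all arrays to equal medians moved this difference to -0.13, as it moved the median difference of all probe sets by -0.16.

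**Figure D1:**
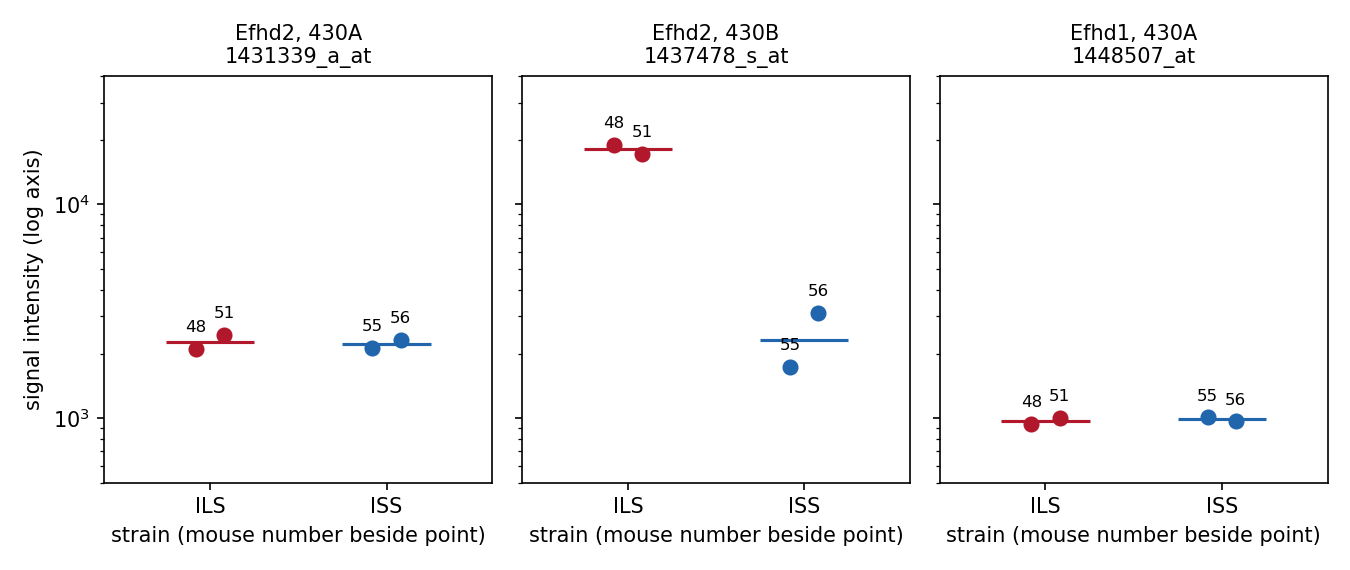
Signal intensity (log axis) of each swiprosin probe set in each mouse, with ILS in red, ISS in blue, the mouse number beside its point and a line at the mean of the log2 values (n = 2 mice per strain). Efhd2 on 430B has its lower ILS mouse at 17273 and its higher ISS mouse at 3120, while on 430A the strains overlap for Efhd2 and for Efhd1.

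Efhd1 was measured on 430A alone. Its signal was 944.0 in ILS mouse 48 and 1004 in ILS mouse 51, against 1009 in ISS mouse 55 and 966.5 in ISS mouse 56. The strains overlapped, and the values of all 4 mice lay within a narrow range. The means were 973.8 ± 42.3 in ILS and 987.7 ± 29.98 in ISS (SD, n = 2). The log2 difference was -0.02 ± 0.13 (SE) and did not pass the limma test over all tested probe sets (adjusted p = 0.942). Its 95% interval ran from -0.32 to 0.27, so an ILS level up to 1.24-fold lower or 1.21-fold higher is within the error of these 4 arrays. On 430A 2.93% of tested probe sets passed at an adjusted p under 0.05 (1.61% higher and 1.33% lower in ILS), and neither swiprosin probe set was among them. On 430B 0.48% passed (0.195% higher and 0.284% lower in ILS), Efhd2 among them, a pass that its choice had fixed and from which nothing is read.

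The same 4 mice were on both chips, so the probe sets of Efhd2 can be compared mouse by mouse. The chips were scaled separately, and the offset between their signals has no meaning of its own. The log2 signal on 430B minus that on 430A was 3.18 in ILS mouse 48 and 2.82 in ILS mouse 51, against -0.30 in ISS mouse 55 and 0.42 in ISS mouse 56. Both ILS mice lay above both ISS mice, and the change of strain differed between the chips by 2.93 on the log2 scale. With 2 mice against 2 an exact permutation test cannot give a two-sided p below 0.333, and no test was made of this difference, for which Efhd2 had been chosen. Efhd1 had no probe set on 430B and allows no such comparison.

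How often the chips differed this much can be described over other genes. Among 1620 genes with different probe sets tested on both chips, each at its brightest set, the median absolute difference between the chips in log2 ILS minus ISS was 0.25 and the 99th percentile was 1.38. At 2.93, Efhd2 was exceeded by 1 gene alone, Kcnj9, a potassium channel subunit, named here after its values were seen. The log2 differences of Kcnj9 were -0.87 on 430A, which passed the limma threshold, and 2.09 on 430B, which did not. A further 100 probe sets are carried by both chips with the same name, and 99 of them were tested on both. For these, the median absolute difference between chips was 0.13 and the largest 0.77. None of them passed the limma threshold on either chip. Each is the same probe set on both chips, while Efhd2 is read by different ones, so the comparison is not like for like.

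**Figure D2:**
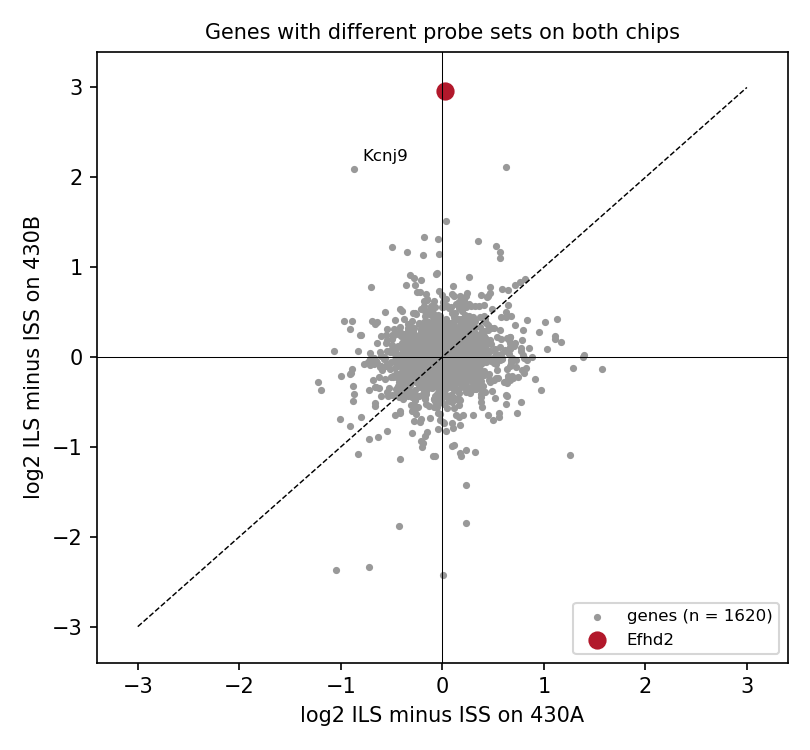
Log2 ILS minus ISS on 430A (horizontal axis) and on 430B (vertical axis) for the 1620 genes with different probe sets tested on both chips, with Efhd2 in red and the dashed line at equal values. Efhd2 lies near 0 on 430A and at 2.96 on 430B, the highest point on the vertical axis among these genes.

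Several technical measures of the arrays stood beside these values. On 430B, ILS mouse 48 ran on fluidics station 1 and the other 3 mice on station 2. Within station 2, Efhd2 kept a log2 difference of 2.89, from ILS mouse 51 against both ISS mice. Both ISS arrays of 430B were scanned before both ILS arrays, so scan order and strain cannot be told apart, and on 430A both station and scan order coincided with strain. The control probe set for the 3' end of the small ribosomal RNA moved with strain on 430B, at 2189 and 2585 in ILS against 545.0 and 712.1 in ISS, and on 430A, where Efhd2 overlapped, at 537.7 and 800.9 against 147.1 and 141.9. Its part in the Efhd2 result was not tested. The ratio of 3' to 5' control signal for Gapdh, a sign of RNA integrity, lay between 0.743 and 0.855 on all 8 arrays, with the strains overlapping on each chip.

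Efhd2 is also made by immune cells, so markers of cell types found in or near the cerebellum were read alongside. In bulk RNA, fewer cells of a type and less RNA per cell cannot be told apart. Defining markers of the cerebellum were bright on 430A, where the granule cell receptor subunit Gabra6 lay at 4160 to 6733 and the Purkinje cell gene Pcp2 at 5488 to 9007. Of 8 microglia markers on 430A, 7 were bright enough to be tested. Their median log2 difference was 0.84 against -0.01 over all tested probe sets. Their summed signal was 6164 to 6316 in ILS and 3868 to 4654 in ISS. It was about the same in both ILS mice and did not overlap between strains. The strains did not overlap in 54.3% of single tested probe sets of 430A. Of the 7 markers, 4 rose in ILS (C1qb, C1qc, Ctss and Laptm5) and none fell, where 2.93% of all tested probe sets passed. That count was 1 without ILS mouse 48, without ILS mouse 51 or without ISS mouse 56. A second C1qb probe set on 430A stood at 0.57 and did not pass (limma adjusted p = 0.184). The 3 microglia markers that did not pass were Csf1r at 0.13, C1qa at 0.29 and Cx3cr1 at 0.49 (limma adjusted p of 0.196 to 0.627). On 430B Laptm5 alone was tested. Its brightest probe set there had a log2 difference of -0.0019 and its other 0.27, neither past the threshold. The part of microglia in the Efhd2 signal was not tested. Of the other marker lists on 430A, 1 of 6 Purkinje markers fell (Ppp1r17) and 1 of 6 oligodendrocyte markers rose (Cldn11). None passed among 5 granule cell, 7 astrocyte, 5 endothelium, 3 choroid plexus markers and 1 blood marker. The Purkinje list had a median log2 difference of -0.36 and a range of -0.90 to 0.04. Its summed signal was 24450 to 26348 in ILS and 27621 to 35543 in ISS, without overlap. The sums of the astrocyte, oligodendrocyte, endothelium and blood lists did not overlap either. Those of the granule cell and choroid plexus lists overlapped. The Ppp1r17 call ended without ISS mouse 56, and that of Cldn11 without ISS mouse 56 or ILS mouse 48. On 430B, 1 of 2 tested Purkinje markers rose (Car8) and 1 of 4 tested astrocyte markers fell (Gfap). Their log2 differences were 1.51 and -2.37, on a chip where 0.48% of all tested probe sets passed. The other Purkinje marker, Calb1, stood at -0.69 and did not pass. The astrocyte markers Aqp4, Slc1a2 and Slc1a3 stood at -0.09, 0.21 and -0.14 and did not pass. With the station as a block Car8 and Gfap stood at 1.23 and -2.17 (limma adjusted p = 0.0795 and 0.0662). ILS mouse 48 was alone on its station, so leaving it out gave the same log2 differences and is not a separate check. At their brightest probe sets on 430A, Car8 stood at 0.04 (adjusted p = 0.895) and Gfap at -1.05 (adjusted p = 0.0618). Their other probe sets on 430A stood at 0.97 for Car8 (limma adjusted p = 0.0514) and -0.21 for Gfap (limma adjusted p = 0.702).

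The known partners of Efhd2 and the actin machinery around it gave few calls. Of 22 listed genes 16 were tested on 430A, where 1 fell in ILS, none rose and 15 did not pass, with a median log2 difference of -0.09 against -0.01 over all tested probe sets. With 2.93% of all tested probe sets passing, 1 call in a list of this size is near the background. The gene that fell was Mapt, which encodes tau. Its signal was 2696 and 2773 in ILS against 3787 and 4020 in ISS, without overlap, a log2 difference of -0.51 ± 0.10 (SE, limma adjusted p = 0.0438). Other probe sets of Mapt stood at 0.15 and -0.55 on 430A and at -0.07 on 430B, and none of them passed. Whichever mouse was dropped, Mapt no longer passed (adjusted p of 0.0550 to 0.226). Kif5a, a kinesin heavy chain, had a log2 difference of 0.38 (adjusted p = 0.313) on 430A and 0.13 (adjusted p = 0.857) on 430B. Cdk5, a kinase that phosphorylates Efhd2, stood at -0.22, and cofilin 1 (Cfl1), which severs actin filaments, at -0.17, neither past the threshold. On 430B none of the 3 tested members passed.

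Other EF-hand proteins passed about as often as all probe sets of 430A, of which 2.93% passed. Of 41 listed genes 28 were tested on 430A, where S100a10 fell in ILS, none rose and 27 did not pass, with a median of -0.08. S100a10, a partner of annexin A2, stood at 523.5 and 512.4 in ILS against 850.2 and 993.6 in ISS, a log2 difference of -0.83 ± 0.14 (SE, limma adjusted p = 0.0273). Its other probe sets stood at -0.91 on 430A (adjusted p = 0.130) and 0.07 on 430B and did not pass. The S100a10 call ended without ILS mouse 48, ILS mouse 51 or ISS mouse 56 (adjusted p of 0.0523 to 0.0970). Parvalbumin (Pvalb) and calretinin (Calb2), calcium buffers of cerebellar neurons, stood at -0.26 and -0.46 and did not pass. None of 13 tested members passed on 430B, where Hpcal4 (-0.46, adjusted p = 0.287) and Calb1 (-0.69, adjusted p = 0.443) had the smallest p.

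Efhd1 acts in the calcium handling of mitochondria, and no gene listed for that role passed in either direction. Of 22 listed genes 13 were tested on 430A, with a median log2 difference of -0.07 and a range of -0.47 to 0.34. Letm1, an ion exchanger of the inner membrane, stood at -0.47 (adjusted p = 0.181) and the outer membrane channel Vdac1 at -0.21 (adjusted p = 0.241). On 430B 7 were tested, with a median of 0.09 and a range of -0.21 to 0.33. Micu2, a regulator of the mitochondrial calcium uniporter, stood at 0.33 (adjusted p = 0.573), the EF-hand carrier Slc25a12 at 0.17 (adjusted p = 0.783) and the uniporter pore Mcu at -0.21 (adjusted p = 0.786).

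The genes on either side of the swiprosins were read by their order in the RefSeq table of assembly GRCm38.p6, 10 protein-coding genes on each side. None passed on either chip. Of the 20 neighbours of Efhd2, 3 were tested on 430A and 6 on 430B. Tmem51 had 567.1 and 469.8 in ILS against 744.7 and 842.8 in ISS on 430A, a log2 difference of -0.62 (adjusted p = 0.0713), of opposite sign to that of Efhd2 on 430B. Kazn, the other neighbour with the smallest p there, stood at 0.15 (adjusted p = 0.657). On 430B the neighbours of Efhd2 ranged from -0.18 to 0.26, with Plekhm2 at 0.23 (adjusted p = 0.757) and Slc25a34 at 0.26 (adjusted p = 0.807). Around Efhd1, 6 neighbours were tested on 430A, from -0.11 (Ecel1) to 0.38 (Ngef), and 7 on 430B, from -0.36 (Dgkd) to 0.17 (Dis3l2). The autophagy gene Atg16l1, with 0.34, had the smallest p of them on 430A (adjusted p = 0.205).

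**Figure D3:**
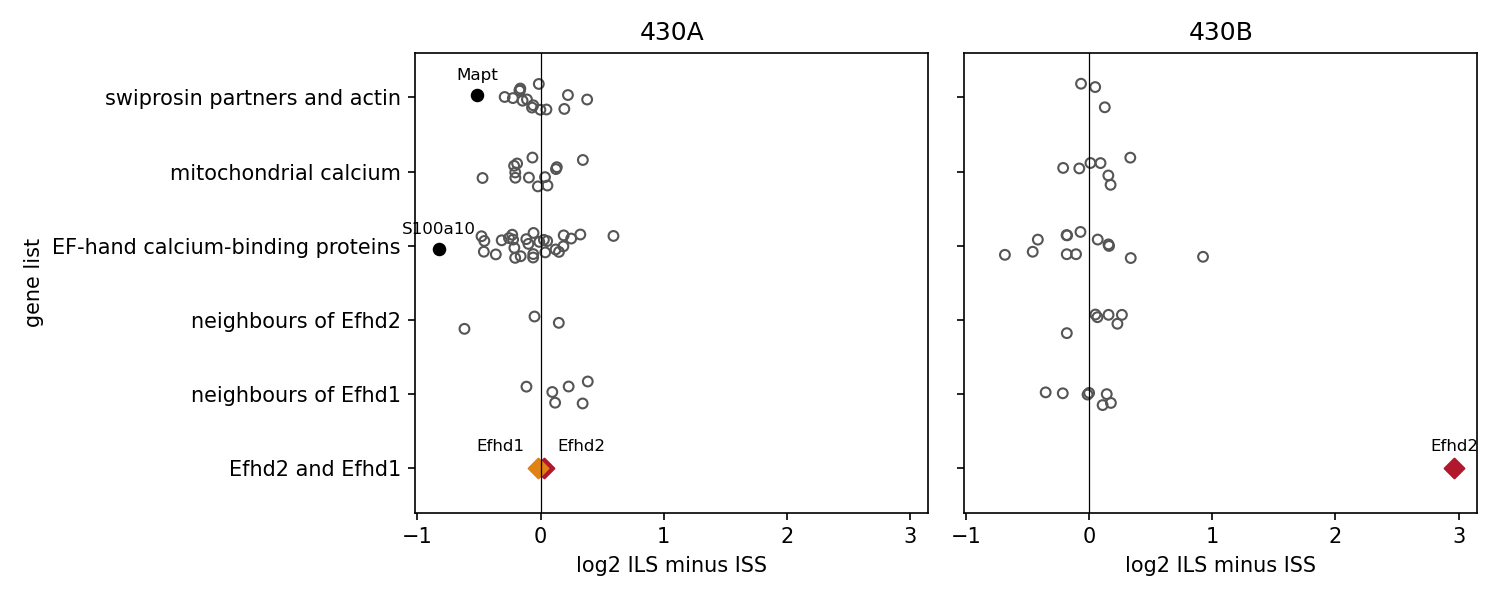
Log2 ILS minus ISS of each tested member of the partner, mitochondrial, EF-hand and neighbour lists at its brightest probe set on 430A (left) and 430B (right), with filled points for members past the limma threshold, and the swiprosin probe sets as diamonds on the bottom row (Efhd2 red, Efhd1 orange; height within a row is arbitrary). Members of the 5 lists drawn lie between -0.83 and 0.92, cell type markers are not drawn, and Efhd2 on 430B lies at 2.96.

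The 430B probe sets with a single symbol that followed Efhd2 most closely across the 4 arrays were all higher in both ILS mice. Since Efhd2 was chosen for its strain difference, likeness to it picks such probe sets, and nothing is read from their direction. Likeness was the root mean square difference of log2 values, each centred on its mean over the arrays, among 8474 tested probe sets with a single symbol. Nearest was Pi4kb, a lipid kinase, at 0.44. It had 879.5 and 589.9 in ILS against 139.5 and 160.3 in ISS. Next came Pink1, the mitochondrial quality control kinase, at 0.56, with 6052 and 5218 in ILS against 1389 and 1211 in ISS. Rbm45, an RNA-binding protein, stood at 0.61, the phosphatase subunit Ppp1r3e at 0.62 and the secreted protein Cthrc1 at 0.65. None of these 8474 came within 0.25 of the Efhd2 pattern, and probe sets without a single symbol were not searched.

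**Figure D4:**
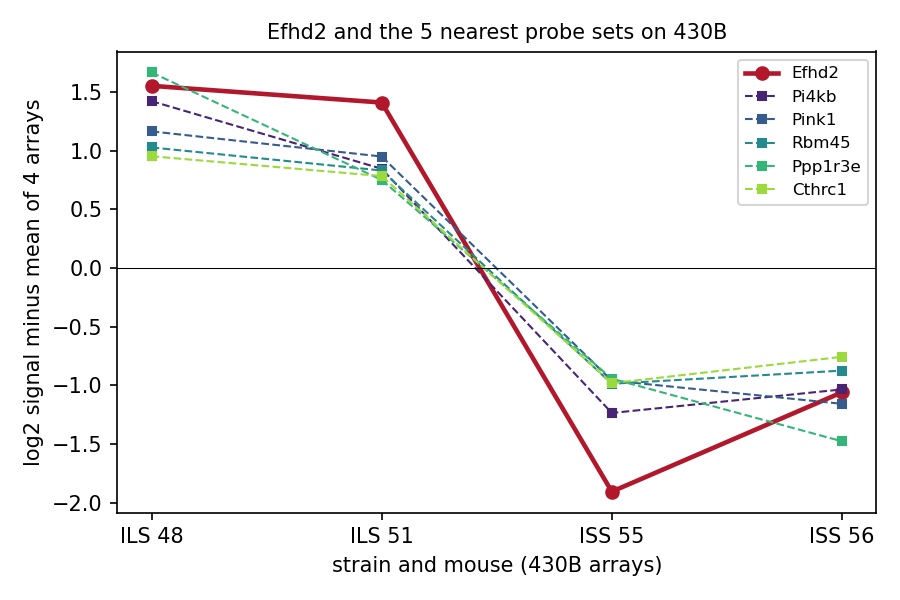
Log2 signal minus its mean over the 4 arrays of 430B (vertical axis) for Efhd2 and the 5 nearest probe sets with a single symbol. Values are by mouse (horizontal axis), and lines join the values of 1 probe set. All 6 are above their means in both ILS mice, and Efhd2 is lowest in ISS mouse 55. The 5 were picked by likeness to Efhd2, so their direction was set by that choice.

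For Efhd1 on 430A the pattern was shared widely, since 8309 of 10462 candidate probe sets lay within 0.25 of it. The nearest were Gfm2, Rps14, Tbp, Golga2 and Lypla2, at 0.0033 to 0.0065, which like Efhd1 varied little among the 4 mice.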

How the data were processed

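Signal intensities on a linear scale were deposited by the authors; the submitters' processing notes name MAS5 and give no version. From the values, all arrays of a chip had equal trimmed means before any step taken here, so the authors had scaled them. Chip type, station and scan order came from the experiment file of each array, per the file headers. No detection calls and no intensities of single probes were used here.

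Arrays were brought to a 2% trimmed mean of 500, values were log2 transformed, and 64 control probe sets per chip were left out. Probe sets whose mean reached the chip's median were tested, which all 3 swiprosin sets did. Strains were compared chip by chip with limma (version 3.58.1, R 4.3.3; eBayes with intensity trend, two-sided), with Benjamini-Hochberg adjustment over the chip. Replicates are separate mice, and 2 residual degrees of freedom remain. The steps were tested on simulated data. List members were counted at their brightest tested probe set, and named where past the threshold or else for the 2 smallest p of a list. Other list members named were chosen after their values were seen. Swiprosins and lists were chosen with earlier results of these data known. Both gene symbols were found in the RefSeq table.

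Alternatives were other scalings, a pseudocount or floor, other filters, eBayes without trend or robust, joint adjustment, each mouse left out and a station block.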

Additional observations from a re-analysis of the deposited data

How the results depend on the processing

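The log2 difference of Efhd2 on 430B ranged from 2.91 to 2.98 over scalings, pseudocount, floor, filters and variance models, was 2.89 with the station as a block, and ran from 2.54 to 3.39 with each mouse left out. On 430A that of Efhd2 was -0.13 with equal array medians, ran from 0.03 to 0.09 otherwise and from -0.08 to 0.14 with each mouse left out. The difference between the chips for Efhd2 ran from 2.83 to 3.04 with values as deposited, equal medians or quantile normalization (cyclic loess was not run for it) and from 2.58 to 3.29 with each mouse left out. Efhd1 passed under no setting. Its difference was 0.019 with quantile and 0.023 with cyclic loess normalization, -0.18 with equal medians, and -0.065 to 0.024 with each mouse left out. Equal medians, quantile and cyclic loess scaling moved the median difference of all probe sets of 430A by -0.16, -0.16 and -0.18. A station block on 430A could not be fitted, since station and strain coincide.

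The calls over all probe sets of 430A, 332, became 1174 with equal medians (19.1% of them higher in ILS, against 54.8%), 136 with no filter, 163 with the stricter filter, 208 with joint adjustment, and 115 to 626 with each mouse left out (115 without ILS mouse 48, 167 without ISS mouse 56, 626 without ISS mouse 55). Those of 430B, 54, became 13 with no filter, 4 without the trend, 94 with joint adjustment, 24 with the station block, and 25 to 67 with each mouse left out (30 without ILS mouse 48, 25 without ILS mouse 51, 34 without ISS mouse 56). Mapt also lost its call with quantile (adjusted p = 0.0544) or cyclic loess normalization (0.0598), no filter (0.0785), no trend (0.0901) and joint adjustment (0.0612), and S100a10 with no filter (0.0517). Cldn11 lost its call with no filter (0.0621), no trend (0.0579) and joint adjustment (0.0506), and on 430B Car8 and Gfap lost theirs with no filter (0.109 and 0.0578) and no trend (0.129 and 0.0653). With equal medians 1 mitochondrial calcium gene, 4 EF-hand genes and 1 neighbour of Efhd2 passed on 430A, and without ISS mouse 55 3 EF-hand genes. Of the 4 microglia calls, 1 was left with no filter (C1qb) and 2 with joint adjustment. With the stricter filter Ctss kept its call, while C1qb, C1qc and Laptm5 were too dim to be tested. The number of mice limits the precision throughout.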

Other observations

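Probe sets of genes on the chromosome of Efhd2 in the RefSeq table, without Efhd2, passed the limma threshold on 430A in 35 of 653 cases (5.36%). Of these, 20 were higher and 15 lower in ILS. Among the rest 252 of 9803 passed (2.57%), a group that holds the other chromosomes and the Efhd2 set, which did not pass. On 430B the counts were 4 of 493 (0.811%, without Efhd2) against 37 of 7959 (0.465%) among the rest. The Efhd2 set, which passed, was counted among those 37 and not with its own chromosome. On the chromosome of Efhd1 they were 14 of 600 (2.33%) on 430A and 4 of 561 (0.713%) on 430B. Of the 5 probe sets with a single symbol nearest to Efhd2 on 430B, Pink1 alone lay on its chromosome. There were 66 protein-coding genes between Pink1 and Efhd2. These comparisons were chosen after the data were examined and were not tested.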
